A study of Mus musculus with 6 samples.

Results

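The 9 airway lineage genes described here were measured in cells sorted from the embryonic mouse trachea. They are the secretory genes Scgb1a1, Scgb3a2, Muc1, Agr2 and Spdef, the neuroendocrine genes Chga and Calca, and the ciliated genes Foxj1 and Ccno. The genes were taken by symbol from a count table of 23478 genes, and all 9 were found in it. RNA was measured by sequencing in 6 libraries of tracheas at embryonic day 13.5, with 3 libraries of muscle and 3 of epithelium. Both populations were taken from Bmp4 f/f (floxed Bmp4) embryos that carried the gamma SMA eGFP reporter, which marks smooth muscle with GFP. No Cre driver is named in the labels, and every library is labelled control. Muscle cells were collected by GFP, so the muscle group is whatever expresses that reporter, and epithelial cells were collected by an antibody to Epcam. The labels do not say whether libraries came from single or pooled embryos, so p-values measure the spread between these libraries, which may be partly technical.

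The mature tracheal epithelium holds basal cells, secretory cells that release secretoglobins and mucins, multiciliated cells that move the mucus, and rare neuroendocrine cells that release peptides. Multiciliated cells are set up by a nuclear cascade in which Gmnc and Mcidas act with E2f4 or E2f5 and switch on Ccno, Myb and Foxj1. Ccno then serves the mass production of centrioles, and Foxj1 the genes of the motile axoneme. In the secretory lineage Spdef drives mucous differentiation, Agr2 helps fold mucins in the endoplasmic reticulum, and Scgb1a1 marks the mature club cell. Neuroendocrine cells store Chga and the Calca peptide CGRP in granules. In bulk libraries such as these, few cells with much RNA of a gene and many cells with little cannot be told apart.

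The libraries held between 11847432 (epithelium replicate 2) and 54848820 counts (epithelium replicate 1). The labels were checked against markers of each sort: all 15 epithelial marker genes were higher in epithelium and all 10 smooth muscle genes were higher in muscle at an adjusted p under 0.05 (edgeR). Below, values of a gene are listed in the order of replicates 1 to 3. The 1449 olfactory and vomeronasal receptor genes, which neither population is known to use, serve as a gauge of background counts. Of these, 73.4% to 78.8% had counts in muscle replicate 2 and epithelium replicates 2 and 3, and 2.90% to 17.4% in the other 3 libraries. The 95th percentile of these receptor genes was 1.93 CPM (read counts scaled to a common library size by TMM) for muscle replicate 2. It was 3.52 and 1.39 CPM for epithelium replicates 2 and 3, and at most 0.152 CPM for the rest. Muscle replicate 2 also had the least of each smooth muscle gene among the muscle libraries, with a summed level of 4137 CPM over the 10 genes against 16896 and 17829.

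Of the 9 lineage genes, Ccno, Muc1 and Scgb3a2 were higher in epithelium in edgeR's quasi-likelihood test at an adjusted p under 0.05. Over all 19375 genes tested, 4.11% were called higher in epithelium and 6.58% higher in muscle. The counts of the gene lists below are to be read beside the same shares. None of the 9 was called higher in muscle, where 1 gene (Calca) had an unadjusted p under 0.05 and neither DESeq2 nor limma-voom called any. In Ccno, Muc1, Scgb3a2 and Spdef all 3 epithelial libraries were above all 3 muscle libraries, as in 10.5% of all genes tested. Scgb1a1 did not pass the filter on low counts and was not tested. The other 5 did not pass: Spdef lay higher in every epithelial library, Calca lay higher in every muscle library, and Agr2, Chga and Foxj1 had low levels that overlapped between the populations. Without muscle replicate 2 and epithelium replicates 2 and 3, an alternative added after the data were seen, 4 genes passed, Ccno, Muc1, Scgb3a2 and Spdef. That fit holds 1 epithelial library, which is assumed to vary like the 2 muscle libraries, so it is no replicated check of epithelium.

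**Figure D1:**
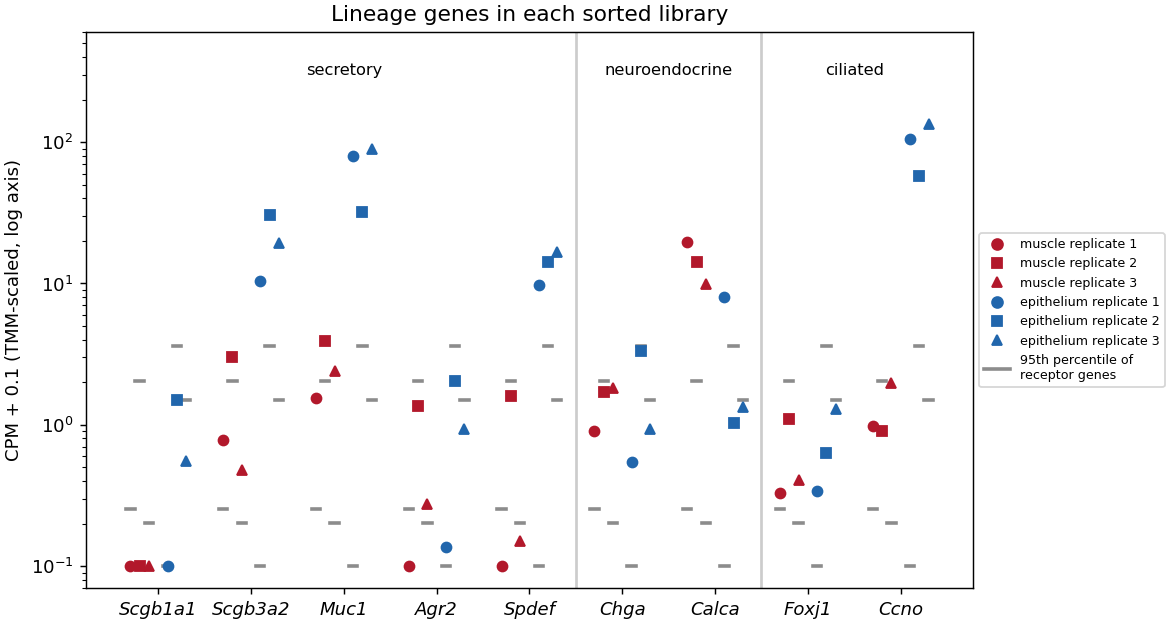
Level of each of the 9 lineage genes in the 6 libraries, as CPM + 0.1 on a log axis, with grey bars at the 95th percentile of olfactory and vomeronasal receptor genes in the same library. Ccno, Muc1, Scgb3a2 and Spdef lie above the grey bar and above every muscle library in all 3 epithelial libraries. Scgb1a1, Agr2, Chga, Calca and Foxj1 lie below the bar in the epithelial libraries numbered 2 and 3. In epithelium replicate 1, where the bar marks 0 CPM, Agr2, Chga, Calca and Foxj1 lie above it.

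Ccno encodes cyclin O, needed for the many centrioles from which motile cilia grow. It had 0.874, 0.799 and 1.87 CPM in muscle and 106, 57.1 and 135 CPM in epithelium. Every epithelial library was thus far above every muscle library, and epithelium replicate 2 was the lowest of its group. Mean levels were 1.18 ± 0.598 CPM for muscle and 99.3 ± 39.2 CPM for epithelium (SD over 3 libraries), an 84.0-fold difference. On the log2 scale the change, muscle over epithelium, was -6.35 ± 0.50 (SE, adjusted p = 0.00019, edgeR). Ccno passed the threshold in all 20 alternative fits, with a log2 fold change between -6.87 and -6.14.

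Ccno lies on mouse chromosome 13 (GRCm38, 112987802 to 112990777, plus strand) directly before Mcidas, which encodes a coiled-coil partner of E2f factors at the top of the multiciliated cascade. The 2 genes have the same strand and are separated by 3067 bases. Because both were called higher in epithelium, their RefSeq promoters (GRCm38.p6, 250 bases before the start to 50 after) are shown with that of Muc1, another gene called in the same direction. Capitals mark matches, on either strand, to a forkhead motif (TGTTTAC), an NK2 motif (CAAGTG), a grainyhead motif (ACCGGTT) or an RFX motif (GTTGCCA), which do not overlap here.
Ccno, chr13:112987552-112987851, plus strand: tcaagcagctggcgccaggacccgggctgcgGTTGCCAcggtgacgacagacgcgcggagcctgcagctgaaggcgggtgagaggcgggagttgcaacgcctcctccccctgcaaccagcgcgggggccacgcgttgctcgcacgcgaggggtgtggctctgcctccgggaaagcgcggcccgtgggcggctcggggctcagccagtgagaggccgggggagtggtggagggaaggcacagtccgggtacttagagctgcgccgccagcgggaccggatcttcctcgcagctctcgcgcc
Mcidas, chr13:112993618-112993917, plus strand: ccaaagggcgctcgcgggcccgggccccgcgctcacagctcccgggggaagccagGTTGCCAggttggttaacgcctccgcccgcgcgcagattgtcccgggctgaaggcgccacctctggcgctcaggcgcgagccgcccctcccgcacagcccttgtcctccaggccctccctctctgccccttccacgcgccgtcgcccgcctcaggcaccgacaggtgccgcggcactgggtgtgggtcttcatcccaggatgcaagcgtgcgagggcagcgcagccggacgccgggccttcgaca
Muc1, chr3:89228806-89229105, plus strand: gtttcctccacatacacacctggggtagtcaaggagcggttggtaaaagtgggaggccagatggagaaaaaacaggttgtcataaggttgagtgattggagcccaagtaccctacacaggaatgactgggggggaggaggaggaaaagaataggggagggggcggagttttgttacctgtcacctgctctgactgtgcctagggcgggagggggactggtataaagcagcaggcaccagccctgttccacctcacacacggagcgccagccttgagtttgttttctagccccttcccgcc
The RFX motif was found once in the Ccno promoter, beginning 219 bases before the start, and once in that of Mcidas, beginning 195 bases before it, both on the plus strand. It occurs in 4.38% of the 32851 promoters of the same length. None of the 4 motifs was found in these 300 bases of Muc1, where the forkhead motif occurs in 3.65%, the NK2 motif in 13.6% and the grainyhead motif in 1.02% of all promoters. Of the 300 bases, 72.0% were G or C in Ccno, 73.3% in Mcidas and 55.7% in Muc1. These matches are descriptions of the letters and do not show that a factor binds.

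Mcidas had 0.228, 3.05 and 0.152 CPM in muscle and 22.0, 18.8 and 28.0 CPM in epithelium. All epithelial libraries were above all muscle libraries, and the highest muscle value was in replicate 2, where background counts were high. The log2 change (muscle over epithelium throughout) was -4.37 ± 1.05 (adjusted p = 0.029, edgeR). Mcidas passed in 9 of 20 alternative fits, with an adjusted p between 6.3e-05 and 0.28. The call was lost without muscle replicate 1 or any single epithelial library (adjusted p up to 0.10), with library size only (0.064), DESeq2 size factors in edgeR (0.0504), no filter (0.055), the replicate block (0.054), the receptor-gene covariate (0.061) and block and covariate together (0.28), and at a threshold of 0.01. Without muscle replicate 2 the log2 change was -6.91 (adjusted p = 6.3e-05).

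The other protein-coding genes within 100 kb were read in the same way, except Mtrex (start at -60.4 kb), which was not found under that symbol. Dhx29, a helicase gene whose start lies at -60.3 kb from that of Ccno, had 45.6 to 58.5 CPM in muscle and 58.9 to 71.0 in epithelium (log2 fold change -0.27 ± 0.22, adjusted p = 0.66, edgeR). Cdc20b, which starts 47.3 kb after Ccno and belongs to the multiciliated programme, had 0, 2.20 and 0.202 CPM in muscle and 0.0743, 3.54 and 2.29 in epithelium. These values follow the libraries with many background counts, and the groups overlapped (-1.30 ± 2.14, adjusted p = 0.90). Gpx8, a peroxidase gene of the endoplasmic reticulum that lies within Cdc20b on the opposite strand, was higher in muscle (1.05 ± 0.22, adjusted p = 0.017), with 251 to 305 CPM against 125 to 146. Standard libraries of this kit keep no strand, so reads from Gpx8 and from Cdc20b introns would not be separated by strand.

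**Figure D2:**
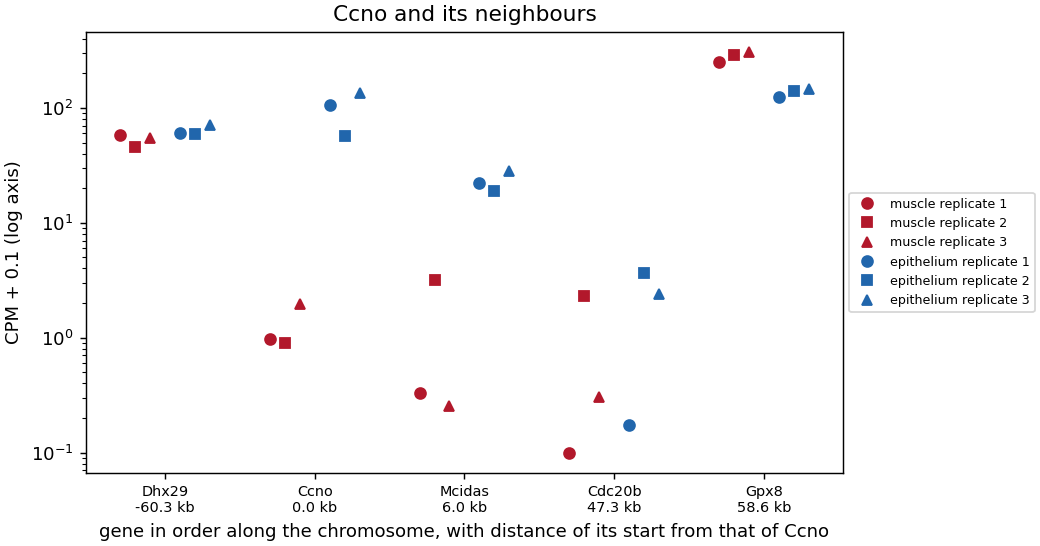
Level of the protein-coding genes within 100 kb of Ccno that were found by symbol, as CPM + 0.1 on a log axis in each library. Genes are in their order along the chromosome, with the distance of each start from that of Ccno. Ccno and Mcidas are higher in all 3 epithelial libraries, Gpx8 is higher in all 3 muscle libraries, and Dhx29 has similar levels in all 6.

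Foxj1, the forkhead factor of motile cilia (chromosome 11, 116330704 to 116335399, minus strand), did not differ beyond its spread. It had 0.228, 0.998 and 0.303 CPM in muscle and 0.242, 0.535 and 1.20 CPM in epithelium, from 6 to 32 counts per library. The 2 groups overlapped throughout. Of the receptor genes, 0.552%, 51.7% and 7.80% were at or above its level in epithelium replicates 1, 2 and 3. Its log2 change was -0.37 ± 1.86 (adjusted p = 0.97, edgeR) and was positive without epithelium replicate 3. In epithelium replicate 1, the deepest library with the fewest background counts, Foxj1 had 13 counts and Ccno 5707.

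Among 14 regulators of the multiciliated cell, 3 were called higher in epithelium, Ccno, Rfx3 and Mcidas. The median log2 fold change of the list was -1.17, beside -0.10 over all genes tested. Rfx3, a factor of cilium genes in many cell types, had 18.8 to 21.9 CPM in muscle and 36.0 to 61.5 in epithelium (-1.23 ± 0.26, adjusted p = 0.018). Its call was lost without muscle replicate 1, muscle replicate 3 or epithelium replicate 1 (adjusted p up to 0.081). E2f4, a partner of Mcidas that is also broadly expressed, had 30.9 to 62.3 CPM in muscle and 63.3 to 127 in epithelium and did not pass (-1.11 ± 0.35, adjusted p = 0.080). E2f4 passed in 12 of 20 alternative fits, among them DESeq2 (adjusted p = 0.0023), limma-voom (0.048) and the replicate block (0.034), with an adjusted p of up to 0.25 over all 20. Myb and Gmnc, named after their values were seen, lay higher in every epithelial library without passing the threshold. Myb had 16.4, 16.6 and 16.8 CPM in epithelium against 0.646, 5.44 and 0.961 in muscle (adjusted p = 0.052, edgeR), and Gmnc 1.67, 6.42 and 5.90 against 0.152, 1.20 and 0 (adjusted p = 0.34). The count of 3 became 1 without muscle replicate 1 or without epithelium replicate 1.

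Of 29 genes of the motile axoneme, which Foxj1 serves in mature ciliated cells, 28 were tested and 1 was called higher in epithelium. That share is near the 4.11% of all genes tested. The gene called was Ccdc40, an assembly factor of the axoneme, with 5.85, 2.15 and 4.42 CPM in muscle and 19.8, 19.1 and 13.2 in epithelium. Every epithelial library was above every muscle library, and the log2 change was -2.06 ± 0.45 (adjusted p = 0.020, edgeR). The call was lost without muscle replicate 3 or epithelium replicate 1 (adjusted p of up to 0.066), and 2 genes of the list passed without muscle replicate 2. Tppp3, a tubulin-binding protein gene and the most abundant of the list in epithelium, had 37.3 to 116 CPM in muscle and 40.2 to 60.1 in epithelium and overlapped (0.45 ± 0.41, adjusted p = 0.71). The summed level of the list was 107, 190 and 169 CPM in muscle and 126, 264 and 200 in epithelium, highest in both groups where background counts were highest. Over the list the median log2 change was -0.90.

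Among the secretory genes, Muc1, a mucin anchored in the apical membrane (chromosome 3, 89229057 to 89233381, plus strand), showed the smallest adjusted p. It had 1.44, 3.84 and 2.30 CPM in muscle and 79.8, 31.9 and 89.4 CPM in epithelium. The groups were far apart, and epithelium replicate 2 was again the lowest of its group. The log2 change was -4.74 ± 0.52 (adjusted p = 0.00085, edgeR), a 26.5-fold difference of the means. Muc1 kept its call in 19 of 20 alternative fits and in all 6 that left out a library, and lost it with the replicate block together with the receptor-gene covariate (adjusted p = 0.13).

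Scgb3a2, a secretoglobin of the airway epithelium (chromosome 18, 43764289 to 43767399, plus strand), had 0.684, 2.90 and 0.379 CPM in muscle and 10.3, 30.3 and 19.4 CPM in epithelium. All epithelial libraries were above all muscle libraries. Epithelium replicate 2 had the most Scgb3a2 and the least Ccno and Muc1 of the 3 epithelial libraries, and epithelium replicate 1 had the least Scgb3a2. This order of Scgb3a2 was also that of the summed receptor genes, at 6.60, 1419 and 594 CPM in epithelium. The part of background counts in this order was not tested. The means differed 15.2-fold, which on the log2 scale was -3.94 ± 0.81 (adjusted p = 0.014, edgeR). No receptor gene reached the level of Scgb3a2 in any epithelial library. Its adjusted p was between 0.00092 and 0.048 over the 6 fits that left out a library.

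Scgb1a1, the secretoglobin of mature club cells (chromosome 19, 9083636 to 9087958, minus strand), was hardly detected. It had 0 counts in all 3 muscle libraries and in epithelium replicate 1, and 21 and 12 counts (1.40 and 0.451 CPM) in epithelium replicates 2 and 3. In those 2 libraries 25.7% and 35.0% of the receptor genes were at or above it. In epithelium replicate 1 a count of 0 allows up to 3 counts, or 0.0558 CPM, where Scgb3a2 had 556 counts. No fold is given because 1 epithelial library was also at 0. Without the filter its adjusted p was 0.30 (edgeR).

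Spdef, the ETS factor of mucous cells (chromosome 17, 27714352 to 27728955, minus strand), had 0, 1.5 and 0.0506 CPM in muscle and 9.65, 14.1 and 16.5 CPM in epithelium. All epithelial libraries were above all muscle libraries. No receptor gene reached its level in an epithelial library, while 9.73% did in muscle replicate 2. At -4.74 ± 1.46 on the log2 scale, Spdef missed the threshold (adjusted p = 0.077, edgeR). Without muscle replicate 2 it was -8.66 (adjusted p = 0.00048), in the libraries of the later header date alone -8.72 (adjusted p = 0.0036), and with DESeq2 -4.70 (adjusted p = 0.0058). It passed in 5 of 20 alternative fits, with an adjusted p of up to 0.27. Muscle replicate 2 held 30 counts of Spdef, and the other muscle libraries 0 and 2.

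Agr2, the disulfide isomerase that mucins need (chromosome 12, 35992907 to 36004087, plus strand), did not follow Spdef and Muc1. It had 0, 1.25 and 0.177 CPM in muscle and 0.0372, 1.94 and 0.826 CPM in epithelium. The groups overlapped, and in epithelium replicates 1, 2 and 3 the level was reached by 2.83%, 16.9% and 15.0% of the receptor genes. Epithelium replicate 1 had 2 counts of Agr2 beside 4291 of Muc1 and 519 of Spdef. Its log2 change was -0.97 ± 2.29 (adjusted p = 0.93, edgeR), and its sign changed without epithelium replicate 2.

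**Figure D3:**
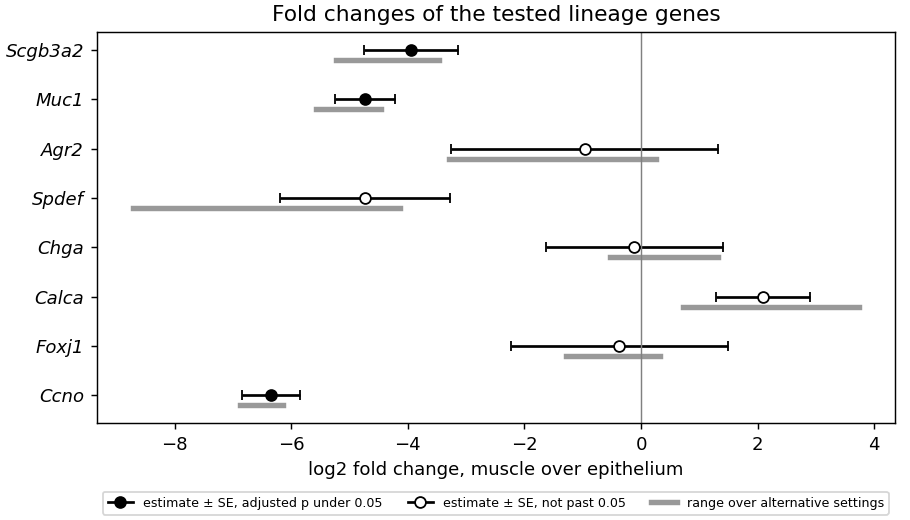
Log2 fold change, muscle over epithelium, of the 8 tested genes with its standard error (points and bars, filled where the adjusted p was under 0.05) and the range over the alternative settings (grey). Ccno, Muc1 and Scgb3a2 are filled and negative over their whole range, Spdef is negative with a wide range down to -8.72, and Agr2, Chga and Foxj1 span 0.

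The wider lists of secretory genes were counted beside the 4.11% of all tested genes called higher in epithelium and their median log2 change of -0.10. Of 20 club cell and airway secretory genes, 17 were tested and 3 were called higher in epithelium, Wfdc2, Lypd2 and Scgb3a2. Their median log2 change was -2.08. Wfdc2, a secreted protein with whey acidic protein domains, had 3.08, 2.15 and 5.13 CPM in muscle and 223, 211 and 311 CPM in epithelium (-6.15 ± 0.41, adjusted p = 9.6e-05, edgeR), and it passed in all 20 alternative fits. Lypd2, a Ly6 family gene of secretory cells, had 0.549 to 1.18 CPM in muscle and 6.38, 50.5 and 22.3 in epithelium (-4.83 ± 0.76, adjusted p = 0.0042). As with Scgb3a2, epithelium replicate 2 was the highest and replicate 1 the lowest for Lypd2. Its call was lost with limma-voom (adjusted p = 0.25) and with the replicate block together with the receptor-gene covariate (adjusted p = 0.097). In epithelium replicate 1, 11 of the 20 genes had no count, against 2 and 1 in epithelium replicates 2 and 3.

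Of 22 mucous cell genes, 21 were in the table, 19 were tested and 2 were called higher in epithelium, Muc1 and Muc5ac. Muc5ac, the gel-forming mucin of surface goblet cells, had 0, 0.599 and 0.0758 CPM in muscle and 5.07, 21.7 and 14.1 CPM in epithelium. No muscle library reached an epithelial one, and the order of the epithelial libraries was that of Scgb3a2. The log2 change was -5.97 ± 1.34 (adjusted p = 0.021, edgeR). The call was lost without muscle replicate 3, epithelium replicate 2 or epithelium replicate 3 (adjusted p up to 0.080). The number called in the list rose to 6 without muscle replicate 2 and fell to 1 without muscle replicate 3, epithelium replicate 2 or epithelium replicate 3. Over the list the median log2 change was -1.23. The row with the symbol Clca1, named after its value was seen, lay the other way. It had 35.7, 21.3 and 17.8 CPM in muscle and 0, 5.55 and 2.22 in epithelium (3.31 ± 1.28, adjusted p = 0.16, edgeR). The deposited counts use older symbols for some list genes, such as Ccdc67 for Deup1. Whether this row is the goblet cell gene now called Clca1 was not checked. The groups of Clca1 did not overlap.

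**Figure D4:**
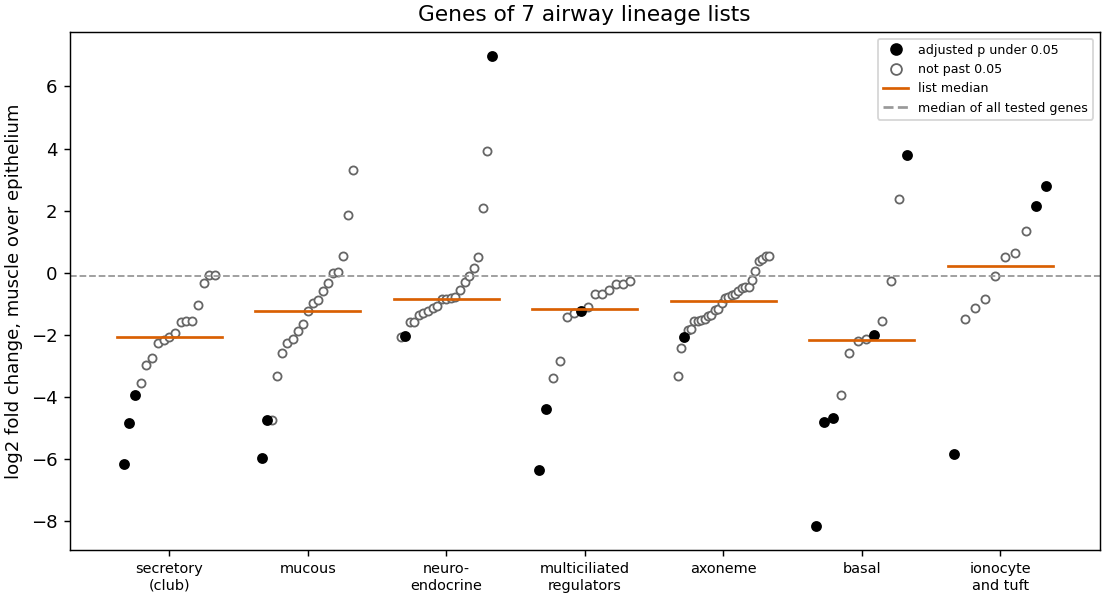
Log2 fold change, muscle over epithelium, of each tested gene in 7 lists of airway lineage genes, filled where the adjusted p was under 0.05, with the list median and the median of all tested genes (-0.10, dashed). Between 1 and 4 genes of each list are filled on the epithelial side, and the neuroendocrine, basal and ionocyte and tuft lists also hold filled genes on the muscle side.

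The neuroendocrine genes gave no call toward epithelium among the 2 followed. Chga, the granule protein chromogranin A (chromosome 12, 102554969 to 102565028, plus strand), had 0.798, 1.60 and 1.72 CPM in muscle and 0.446, 3.21 and 0.826 CPM in epithelium. The groups overlapped. Its log2 change was -0.12 ± 1.52 (adjusted p = 0.99, edgeR), and its sign was positive in 9 of 18 alternative fits. In epithelium replicates 1, 2 and 3, 0.207%, 6.14% and 15.0% of the receptor genes were at or above Chga.

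Calca, the gene of calcitonin and CGRP (chromosome 7, 114631478 to 114636357, minus strand), lay the other way. It had 19.5, 14.1 and 9.76 CPM in muscle and 7.86, 0.936 and 1.24 CPM in epithelium. Every muscle library was above every epithelial library, as for 16.4% of all genes tested. Epithelium replicate 1, with 423 counts, stood apart from the other epithelial libraries with 14 and 33. In epithelium replicates 1, 2 and 3, 0%, 39.8% and 7.25% of the receptor genes were at or above Calca. At 2.09 ± 0.81 on the log2 scale, Calca missed the threshold (adjusted p = 0.16, edgeR), with an adjusted p between 0.0029 and 0.48 over the alternatives. Without epithelium replicate 1 it was 3.74 (adjusted p = 0.0029), and without the 3 libraries with the most background counts, which leaves epithelium replicate 1 alone in its group, it was 0.71 (adjusted p = 0.48). Gene counts do not separate the calcitonin and CGRP transcripts of Calca.

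Calcb, the paralog of Calca on the same chromosome, was called higher in muscle. It had 192, 10.4 and 79.1 CPM in muscle and 0.112, 1.67 and 0.789 CPM in epithelium, so that muscle replicate 2 was far below the other muscle libraries. The log2 change was 6.98 ± 1.24 (adjusted p = 0.0079, edgeR), and Calcb passed in 15 of 20 alternative fits. The call was lost without epithelium replicate 3 (adjusted p = 0.063), with limma-voom (0.26), with the replicate block (0.085), with the receptor-gene covariate (0.16) and with block and covariate together (0.49). The ratio of Calcb to Calca counts was 9.88, 0.735 and 8.11 in muscle and 0.0142, 1.79 and 0.636 in epithelium. These ratios overlapped between the groups. How the counting treated similar stretches of the 2 paralogs is not given in the sources used here, so both are uncertain to that extent.

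**Figure D5:**
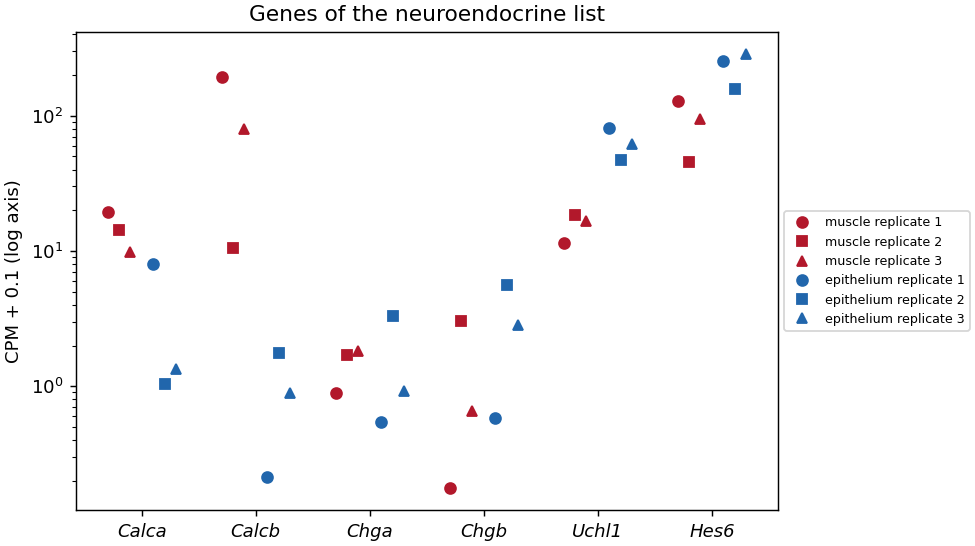
Level of 6 genes of the neuroendocrine list in each library, as CPM + 0.1 on a log axis. Calca and Calcb are higher in the muscle libraries, Uchl1 and Hes6 are higher in the epithelial libraries, and Chga and Chgb overlap between the groups.

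Of the 22 genes in the neuroendocrine list, 21 were tested. In epithelium 1 gene was called higher, Uchl1, and 1 higher in muscle, Calcb, and the median log2 fold change was -0.83. These shares are near those of all genes tested, 4.11% toward epithelium and 6.58% toward muscle. Uchl1, a ubiquitin hydrolase of neuroendocrine cells and neurons, had 11.4, 18.4 and 16.5 CPM in muscle and 81.6, 47.4 and 61.6 in epithelium (-2.04 ± 0.30, adjusted p = 0.0029), and it passed in all 20 alternative fits. Hes6, a Notch-regulated factor, had 129, 45.4 and 95.3 CPM in muscle and 254, 158 and 286 in epithelium (-1.37 ± 0.40, adjusted p = 0.063). Hes6 passed in 12 of 20 alternative fits, among them DESeq2 (adjusted p = 0.00028), limma-voom (0.023), the replicate block (0.00998) and the fit without epithelium replicate 2 (0.022), with an adjusted p of up to 0.16 over all 20. Without epithelium replicate 2, 2 genes of the list were called higher in epithelium. In muscle, 2 were called without epithelium replicate 1 and none (edgeR) without epithelium replicate 3.

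Calca, Chga and Uchl1 are also expressed by neurons, so 22 neural and glial markers were read beside them. Their summed level was 79.6, 143 and 84.3 CPM in muscle and 179, 194 and 157 CPM in epithelium. Of the 20 tested, Erbb3 was called, toward epithelium, and epithelial cells are also known to express it. Without Erbb3 the sums overlapped, at 63.5, 127 and 75.7 CPM in muscle and 61.0, 129 and 69.1 CPM in epithelium. Foxd3, which was not tested, was at 0 in muscle replicates 1 and 3 and epithelium replicate 1, and had at most 0.526 CPM elsewhere. Of the tested markers, 3 lay higher in every muscle library (Stmn2, Nefl and Nefm) and 2 in every epithelial library (Erbb3 and Ret). Over all genes tested these shares were 16.4% and 10.5%. Stmn2 had 12.6, 16.4 and 13.5 CPM in muscle and 4.76, 8.15 and 1.80 in epithelium (adjusted p = 0.13, edgeR). Nefl had 12.8, 15.4 and 13.6 CPM against 7.99, 2.81 and 3.04 (adjusted p = 0.091). The part of neural cells in the levels of Calca, Chga and Uchl1 was not tested.

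Other cells that a sort could carry were gauged in the same way, by the summed level of their markers. The 8 endothelial markers had 110 to 130 CPM in muscle and 16 to 83 in epithelium, with Flt1 called higher in muscle. Most of the muscle level came from Flt1 (58.7 to 63.6 CPM) and Tek (26.6 to 34.6 CPM), which lay higher in every muscle library. Pecam1, Cdh5, Kdr, Emcn, Cldn5 and Egfl7 overlapped between the groups. The 8 immune markers had 3.19 to 49.6 and 4.31 to 42.9 CPM, and the 8 erythroid markers 11.1 to 43.1 and 7.03 to 24.5. Of the 5 mesothelial markers, Krt7, also a keratin of simple epithelia, was called higher in epithelium. The 6 markers of oesophageal epithelium had 0.708 to 7.04 CPM in muscle and 19.5 to 39.0 in epithelium, highest in epithelium replicate 1 and lowest in replicate 3. Pax9 (22.9, 6.08 and 3.87 CPM) and Pitx1 (13.2, 8.96 and 3.23) had that order, and the other markers did not. Krt4 (0.372, 10.9 and 9.54 CPM), Sprr3 (0, 1.60 and 1.20) and Krt13 (0, 0.936 and 0.376) were lowest in epithelium replicate 1, and Krt6a was highest in replicate 2. The part of these cells in the levels of the 9 genes was not tested.

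For the remaining airway lineages, the same counts were made. Of 12 basal cell genes, 4 were called higher in epithelium (Krt15, Itga6, Trp63 and Krt17) and 1 in muscle (Snai2), with a median log2 fold change of -2.16. Trp63, the master factor of basal cells, had 0.988, 5.14 and 0.531 CPM in muscle and 71.8, 65.6 and 40.3 in epithelium (-4.78 ± 0.79, adjusted p = 0.0057, edgeR). Krt15, a basal keratin, had at most 0.300 CPM in muscle and 62.5, 52.4 and 19.0 in epithelium (-8.15 ± 0.90, adjusted p = 0.00090). Krt17, another keratin of basal cells, had 8.25, 40.9 and 9.43 CPM in epithelium (-4.66 ± 0.82, adjusted p = 0.0070). Itga6, an integrin of hemidesmosomes, differed less (-1.98 ± 0.22, adjusted p = 0.00096). Snai2, a zinc finger factor that mesenchymal cells also use, was higher in muscle (3.79 ± 0.44, adjusted p = 0.0011). Of the 12 genes, 6 lay higher in every epithelial library and 2, Snai2 and Ngfr, in every muscle library. Ngfr, Krt5 and Krt14 were named after their values were seen, and none passed the threshold. Ngfr was at 2.36 ± 0.69 (adjusted p = 0.064, edgeR). Krt5, a basal keratin, had 19.5, 0.334 and 0.526 CPM in epithelium and overlapped with muscle (adjusted p = 0.196). Krt14 also overlapped (adjusted p = 0.68). Without muscle replicate 2, 2 basal list genes were called higher in muscle.

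Of 12 genes of ionocytes and tuft cells, 10 were tested, with Cftr called higher in epithelium and Trpm5 and Dclk1 higher in muscle. Cftr, the chloride channel gene enriched in ionocytes, had 67.2, 87.2 and 67.5 CPM in the epithelial libraries. The ionocyte factor Foxi1 had at most 0.869 CPM in any library, and the tuft cell factor Pou2f3 had 0.0372, 4.14 and 2.07 CPM in epithelium, both named after their values were seen. Trpm5, a cation channel gene of tuft cells, had 53.7 to 58.1 CPM in muscle and 5.0 to 10.8 in epithelium (2.78 ± 0.32, adjusted p = 0.0010, edgeR). Dclk1, a kinase gene used as a tuft marker, had 140 to 180 CPM in muscle and 28.4 to 40.8 in epithelium (2.14 ± 0.25, adjusted p = 0.0011). Both passed in all 20 alternative fits.

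Levels of different genes were compared per kb of exon, using GENCODE M21 lengths on GRCm38. In epithelium the mean level was 38.8 ± 15.3 CPM per kb for Ccno (SD, n = 3), 28.6 ± 13.1 for Muc1 and 22.7 ± 11.4 for Scgb3a2. Ccno was above Muc1 in each of the 3 epithelial libraries, but the ranges of all 3 genes overlapped and their order is not beyond their spread. Spdef followed with 5.82 ± 1.51 CPM per kb, under each of the 3 in every epithelial library. Calca had 1.99 ± 2.32, Scgb1a1 1.30 ± 1.51, Agr2 0.723 ± 0.740, Chga 0.542 ± 0.543 and Foxj1 0.251 ± 0.188 CPM per kb, and neighbours among these 5 did not differ beyond their spread. Of the wider lists, Mcidas had 9.65 CPM per kb in epithelium, Lypd2 38.9, Wfdc2 218 and Muc5ac 1.27. In muscle Calca was the highest of the 9 genes at 8.58 ± 2.89 CPM per kb, above each of the others in every muscle library. The annotation behind the deposited counts is not given in the sources used here, so these lengths may differ from the counted ones.

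The genes whose pattern over the 6 libraries was most like that of the called genes were sought among the 12737 genes whose average log2 CPM was 2 or more. Likeness was the root mean square difference of log2(CPM + 1) after centring each gene. For Ccno these were Tmem54 (0.22) and the keratin gene Krt18 (0.25), both called higher in epithelium in all 20 alternative fits. As genes picked for likeness to a called gene in the same libraries, their calls are no separate result. For Muc1 they were Fbln7 (0.23) and Bnipl (0.24). For Scgb3a2 they were BC030870 (0.20) and Fgf1 (0.25), which share its high value in epithelium replicate 2, with 21.5 and 27.1 CPM, and its low value in replicate 1, with 7.97 and 12.6 CPM. They also share its highest muscle value in replicate 2, with 2.80 and 3.00 CPM. Replicate 2 had the most receptor counts in both groups, and their part in this likeness was not tested. BC030870 itself did not pass the threshold (adjusted p = 0.074, edgeR), and Fgf1 lost its call without muscle replicate 3, epithelium replicate 2 or epithelium replicate 3 (adjusted p up to 0.062).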

How the data were processed

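RNA-seq libraries of 3 muscle and 3 epithelial samples were compared. The authors deposited whole-number counts per gene symbol, not normalized, for 23478 genes. Per the labels' protocols, cells were dissociated with TrypLE for 15 minutes, and libraries were made with SMART-Seq v4 and Nextera XT, without molecular identifiers. The submitters' processing notes name the build mm10 and Trim Galore, Bowtie2, Cufflinks and DESeq, with no role or version. Counts of 1 to 19 were even in 73.8% to 79.6% of cases per library, and the cause was not tested. Depth is the total count per library. Floors (3 counts per library) cover counting error only.

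Counts were analysed in R 4.3.3 with edgeR 4.0.16 (filterByExpr by group with a minimum count of 10, TMM scaling, robust quasi-likelihood test, two-sided, Benjamini-Hochberg adjustment over all 19375 tested genes, threshold 0.05). The standard error was derived from the test statistic. CPM values were computed from the counts with TMM-scaled library sizes. Alternatives used DESeq2 1.42.0, limma 3.58.1, other scalings, filters and covariates, and omission of libraries. The header identifiers of the deposited file were read as 2 dates, the earlier for both libraries numbered 2. The fit was also run on simulated counts, with an outcome that is not reported here. Those counts had no background that differs between libraries, so the run is no check of that feature of these data. At 3 against 3 libraries, the smallest p an exact permutation test can reach is 0.1.

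The 9 genes and the gene lists were chosen with earlier results of these data known. Genes named were the 9, up to 4 per lineage list and direction with the smallest adjusted p, the 2 most abundant per list in epithelium, and the 2 most alike per called gene. The sources used here give no annotation or counting program. 6 list genes were matched through RefSeq synonyms and 1 was not matched. Positions and lengths are from GENCODE M21 (GRCm38), and promoters are from RefSeq (GRCm38.p6). Single promoter entries were used for 6 of the 9 genes. Values of some list genes are not reported here.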

Additional observations from a re-analysis of the deposited data

How the results depend on the processing

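Of the called genes among the 9, Ccno kept its call in all 20 alternatives run. Over named genes and alternatives, 553 values kept direction and side of the threshold, 46 lost the call, 39 gained it and 13 changed sign. Unless a value below shows otherwise, the cause of a change was not tested. Library size alone moved the median log2 change of all genes from -0.10 to -0.33.

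Over all genes, 797 were higher in epithelium, against 1439 with library size only, 1582 with DESeq2, 1219 with the receptor-gene covariate, 404 at an adjusted p under 0.01, and 514 to 918 when leaving out 1 library. In muscle 1274 were higher, against 1949 with DESeq2, 2054 with the header date as a term, 579 at 0.01, and 570 to 1655 when leaving out 1 library (570 without epithelium replicate 3, 716 without muscle replicate 3). Of the 9 genes, 3 to 4 were higher in epithelium and 0 to 1 in muscle when leaving out 1 library.

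The replicate numbers do not pair the libraries by the labels, and deviations from the group means correlated at 0.54, 0.63 and -0.34 over 19375 genes for numbers 1 to 3, with muscle replicate 3 closest to epithelium replicate 1 (0.62). With the replicate block, 1 of the 9 genes was called higher in muscle (Calca, adjusted p = 0.049), Calcb lost its call (0.085), mucous genes gave 1 in muscle and neuroendocrine genes 2 in epithelium. The replicate block with the receptor-gene covariate gave 1 mucous gene in epithelium and 1 in muscle, 2 neuroendocrine in epithelium, 0 axoneme in epithelium and 0 basal in muscle. The covariate alone gave 1 of the 9 genes in muscle, 1 mucous in muscle, 3 and 2 neuroendocrine in epithelium and muscle, 5 multiciliated regulators in epithelium and 2 basal in muscle.

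DESeq2 gave 4 mucous, 3 neuroendocrine and 5 multiciliated genes in epithelium and 2 basal in muscle. With limma-voom 1 mucous, 3 neuroendocrine, 5 multiciliated and 2 basal genes were higher in epithelium, and 2 mucous and 0 neuroendocrine in muscle. Library size only, DESeq2 size factors in edgeR and a minimum count of 50 each gave 3 neuroendocrine genes in epithelium. The later header date alone gave 5 mucous, 2 neuroendocrine and 5 multiciliated genes in epithelium and 2 basal in muscle, and the date as a term 4, 3, 5 and 2, with 2 axoneme genes in epithelium. At an adjusted p under 0.01, 1 mucous, 1 multiciliated and 0 axoneme genes were higher in epithelium. Without the 3 libraries with most receptor counts, chosen after seeing the data and leaving 1 epithelial library that is assumed to vary like the others, 5 mucous, 2 neuroendocrine and 5 multiciliated genes were higher in epithelium, and 2 mucous and 2 neuroendocrine in muscle.

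Leaving out 1 library gave, in epithelium, 1 to 6 mucous, 1 to 2 neuroendocrine, 1 to 4 multiciliated, 0 to 2 axoneme and 4 to 5 basal genes, and in muscle 0 to 1 mucous, 0 to 2 neuroendocrine and 1 to 2 basal genes. The log2 change of Agr2 was 0.040 with the covariate and -3.29 (without muscle replicate 2) to 0.25 (without epithelium replicate 2) when leaving out 1 library. That of Chga was 0.86 with limma-voom, 0.31 with the replicate block, 0.54 with the covariate, 0.27 with both, 0.91 in the later date alone, 0.34 with the date term, 0.18 without muscle replicate 1, -0.53 to 1.09 over all that leave out 1 library (1.09 without epithelium replicate 2) and 1.31 without the 3 libraries. Leaving out 1 library, Foxj1 was at -1.28 to 0.33 (without epithelium replicate 3) and Tppp3 at -0.17 (without muscle replicate 3) to 0.76. Scgb1a1, Agr2, Chga and Foxj1 had at most 68 counts in any library, and what difference this depth could show was not tested.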
